A study of Mus musculus with 3 samples.

Results

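The opioid peptides and receptors were described here through 7 genes: the precursor genes Penk, Pdyn and Pnoc, and the receptor genes Oprm1, Oprd1, Oprk1 and Oprl1. The genes were chosen by name, and all 7 were found among the 33696 features of each tendon library and the 35980 features of the dorsal root ganglion (DRG) library. Opioid precursors are cut into short peptides at pairs of basic residues. Penk gives mainly enkephalins, Pdyn gives dynorphins and Pnoc gives nociceptin. The receptors couple to inhibitory G proteins: Oprm1 encodes the mu receptor, Oprd1 the delta receptor, Oprk1 the kappa receptor and Oprl1 the nociceptin receptor. In sensory neurons of the DRG, whose fibres carry touch, temperature, itch and pain signals, these receptors reduce excitability and transmitter release.

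The study asked how sensory nerves affect the Achilles tendon, with 3 droplet single-cell RNA libraries, all of C57BL/6 mice. For the neurectomy library, the sural nerve was cut 1 week before the ankle was held in dorsiflexion for 4 weeks, and cells were taken from the Achilles tendon. In the sham library the nerve was exposed and left intact, with the same 4 weeks of immobilization, so neither tendon group was free of immobilization. Each tendon library is described as a pool of 5 mice. The DRG library came from 18 ganglia of 6 mice that received 5 µL of the viral vector AAV-PHP.S-tdTomato in the left Achilles tendon sheath at 4 weeks of age and were killed 4 weeks later. Vector transcripts were counted as the feature AAV_gene1, whose sequence the labels do not describe, and 1 label names a lentivirus instead. Each group was 1 library, so no difference below has a replicate check. Intervals are 95% intervals for counting error only and do not cover the spread between mice or between cells.

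The libraries held 25067 (neurectomy), 32951 (sham) and 23566 (DRG) barcodes, with median depths of 1212, 1065 and 3422 UMIs (unique molecular identifiers, each counting 1 captured transcript). After filters, 21240, 24250 and 22043 barcodes were analysed, of which 39.1%, 26.2% and 5.36% fell in no marker gate. Ganglia had been enriched on a density gradient, which can set the shares of cell classes. The tendon libraries shared 1001 barcode sequences. They also differed in sex-linked transcripts: 4 Y-linked genes gave 39 UMIs in the neurectomy library and 6366 in the sham library, while Xist, which is transcribed from the inactive X chromosome, gave 55528 and 61571. The sham library therefore held cells of both kinds and the neurectomy library cells with Xist nearly alone. The DRG library had 49538 Y-linked and 23 Xist UMIs. The labels state no sex. The tendon Penk values below are therefore given over all barcodes and by sex-linked transcripts.

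The precursor transcripts are told apart by the peptide cores that they encode. Opioid peptide cores begin with the codons for tyrosine, glycine, glycine and phenylalanine, and nociceptin has phenylalanine in place of the tyrosine. Reading the longest protein-coding transcript of each precursor in frame (GRCm38, GENCODE vM21), 7 such cores were found in the 807 coding bases of Penk, 3 in the 747 of Pdyn and 1 of the nociceptin kind in the 564 of Pnoc. All 11 cores follow a pair of codons for basic residues. In Penk, 6 cores are followed by a methionine codon and 1 by a leucine codon, and in Pdyn all 3 are followed by leucine. The sequences below are shown because a UMI of Penk or Pdyn counts a transcript that carries several peptides at once. Capitals mark the core, with 6 bases before it and 9 after it, all within 1 coding exon on the minus strand.
Penk core 1, chr4:4134328-4134354: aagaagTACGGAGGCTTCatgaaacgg
Penk core 6, chr4:4133935-4133961: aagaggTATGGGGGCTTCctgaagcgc
Penk core 7, chr4:4133842-4133868: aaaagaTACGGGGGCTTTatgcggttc
Pdyn core 1, chr2:129688232-129688258: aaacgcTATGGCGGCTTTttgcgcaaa
Pdyn core 2, chr2:129688124-129688150: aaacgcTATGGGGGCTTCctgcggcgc
Pnoc core 1, chr14:65404872-65404898: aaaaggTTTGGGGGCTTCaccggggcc

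On the same build, Penk lies at chr4:4133531-4138819, Pdyn at chr2:129686565-129699844 and Pnoc at chr14:65400673-65425472, all on the minus strand. The receptor gene Oprm1 lies at chr10:6758506-7038198 and Oprk1 at chr1:5588466-5606131, both on the plus strand. Oprl1 lies at chr2:181715016-181720985 on the plus strand and Oprd1 at chr4:132110726-132144486 on the minus strand. The libraries count transcripts and not peptides or receptor proteins.

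In the ganglion, the receptors were transcripts of neurons, and Penk was shared between neurons and fibroblasts. Of the UMIs in analysed barcodes of the library, gated neurons, which made up 16.0% of barcodes, held 99.6% of those of Oprm1, 98.6% of those of Oprd1, 99.4% of those of Oprk1 and 99.1% of those of Pnoc. They held 792 of 800 Oprl1 UMIs, but 81.6% of the Penk UMIs. The neurons were deeper than all other classes, with a median of 46774.5 UMIs against 5323 in satellite glia and 3811 in fibroblasts, so levels are given as CPM, the UMIs of a gene scaled to a class total of 1000000. Oprm1 stood at 273 CPM (270 to 275) in neurons and at 1.49 CPM in satellite glia, the cells that wrap neuron bodies. The other glia, fibroblasts and endothelium lay between 0.529 and 2.46 CPM, a level read here as the background of free RNA in droplets.

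Penk was higher in DRG fibroblasts than in the neurons as a whole. Its level was 86.6 CPM (80.4 to 93.1) in 1926 fibroblast-like barcodes and 23.4 CPM (22.7 to 24.2) in 3518 neurons, a ratio of 3.70 (3.41 to 4.00). Of the fibroblasts, 13.6% held a Penk UMI, against 0.330% of satellite glia, whose level was 55.3-fold lower (40.5 to 77.4). How much of the fibroblast Penk is free RNA was not tested. Fibroblasts were not uniform. Those gated by the Pi16 list, which marks fibroblasts of the adventitia, stood at 113 CPM (225 barcodes). Those gated by a stromal list, headed by Pdgfra and Dpt, stood at 36.7 CPM (1295 barcodes), 0.323 times as high (0.260 to 0.403). The 406 fibroblasts with neither assignment held the highest level, 194 CPM (175 to 214).

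**Figure D1:**
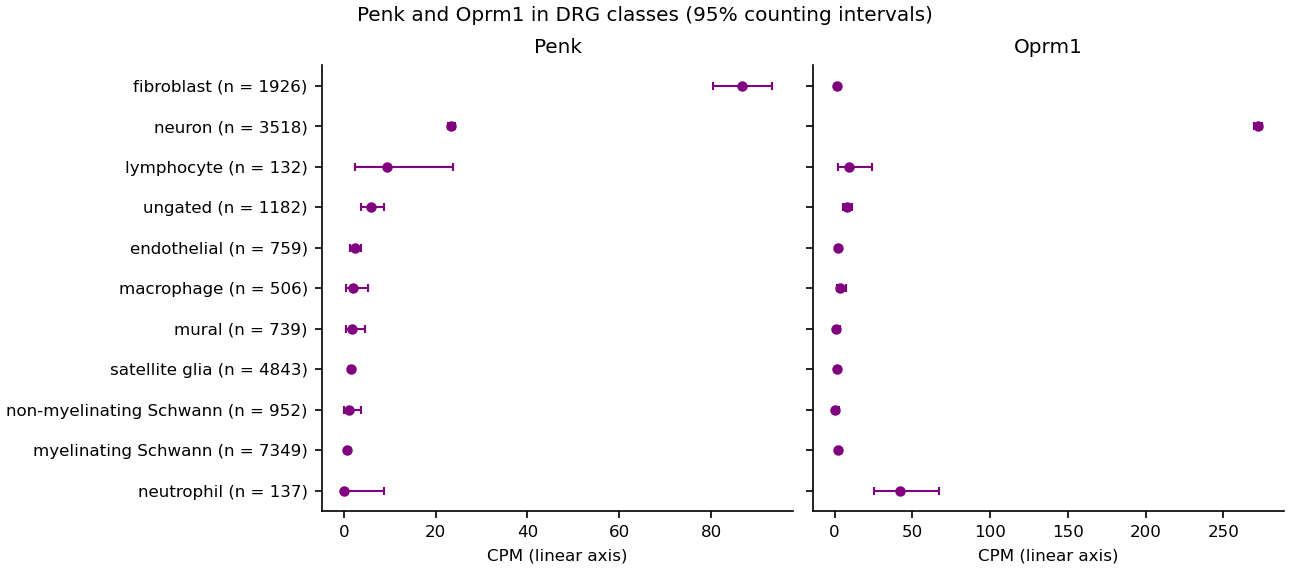
Level of Penk (left) and Oprm1 (right) in CPM on linear axes in each DRG class, with n barcodes; points are summed UMIs over summed depth and bars are 95% counting intervals. Penk is highest in fibroblasts (86.6 CPM) and Oprm1 in neurons (273 CPM), with neutrophils next for Oprm1 at 42.3 CPM.

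The mu receptor transcript also appeared in neutrophils of the ganglion. The 137 neutrophil-like barcodes, gated on genes such as S100a8 and Retnlg, held 18 Oprm1 UMIs in 15 barcodes, which is 42.3 CPM (25.1 to 66.9). Other non-neuronal classes lay between 0.529 and 9.32 CPM, the last from 4 UMIs in lymphocytes. Neutrophils were shallow, with a median of 1936 UMIs, and 10.9% of them held an Oprm1 UMI (6.26 to 17.4%), against 0.626% of myelinating Schwann cells at a similar median of 2119 UMIs.

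Neurons were then split by subtype markers that include no opioid gene. The gates followed known classes: peptidergic nociceptors (Calca, Adcyap1; 799 neurons), Mrgprd nociceptors (601), C-fibre low-threshold mechanoreceptors or C-LTMRs (280), itch neurons with Nppb and Sst (163), Trpm8 cold-sensing neurons (131), A-beta touch neurons (129), Mrgpra3 itch neurons (104), A-fibre peptidergic neurons with Kit and Bmpr1b (76), Chrna3 silent nociceptors (72) and A-delta touch neurons (28). A gate on the prolactin receptor gene Prlr (at least 400 CPM and 2 UMIs) took out 69 further neurons. It was set after the Penk values had been seen, so its Penk level is a description. The Trpm8 gate is the least sharp of those used, with 3 of its 5 markers at least 2-fold higher inside than outside, and 1049 neurons, of low median depth (7607 UMIs), stayed without a gate. A gate of 17 proprioceptor-like neurons was too small to enter the ordering of levels.

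**Figure D2:**
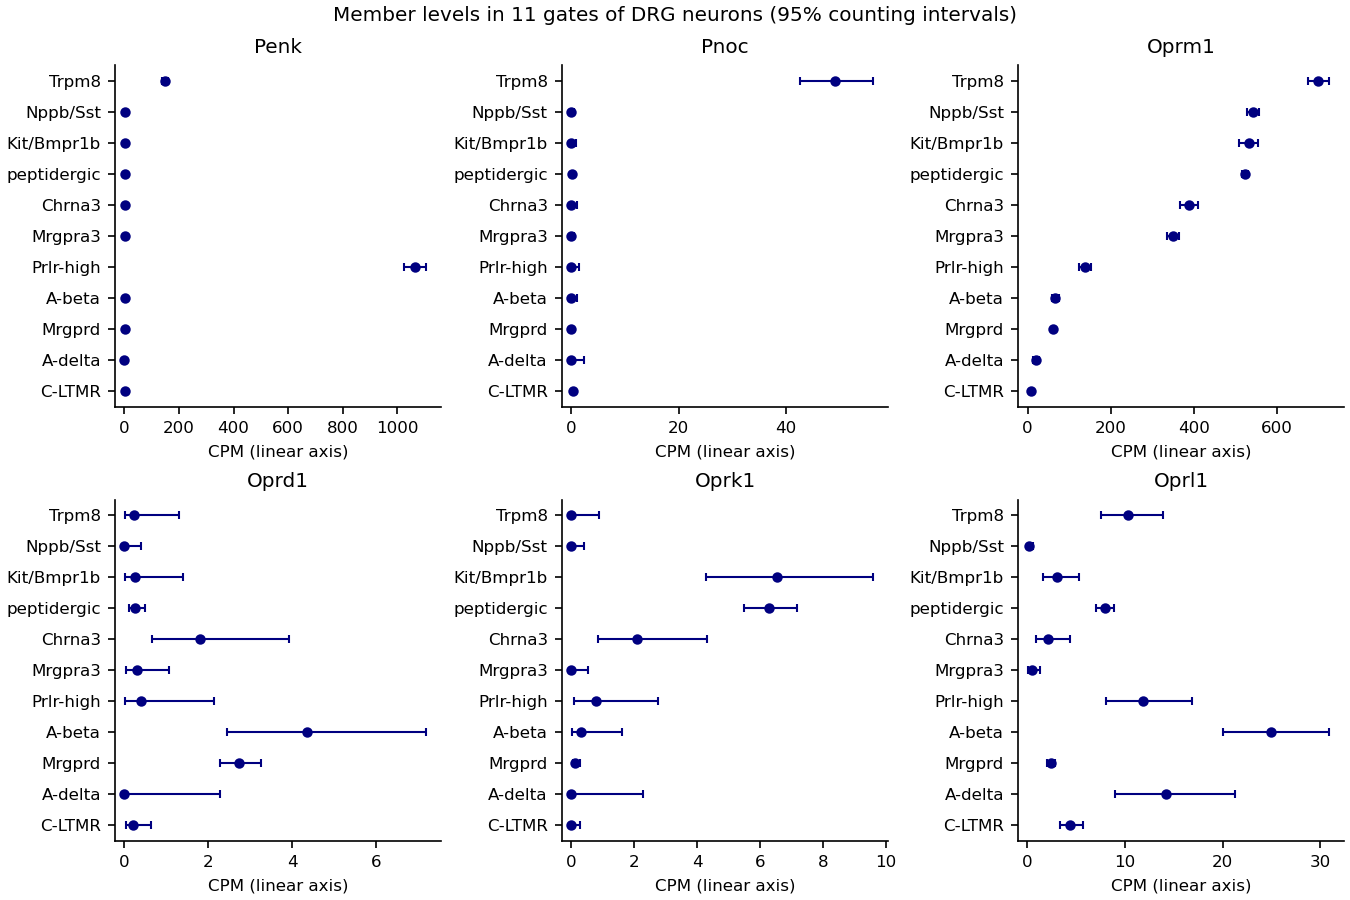
Levels of Penk, Pnoc, Oprm1, Oprd1, Oprk1 and Oprl1 (CPM, linear axes with separate ranges) in 11 neuron gates of the DRG library, with 95% counting intervals. Penk is high in the Prlr-high gate (1065 CPM) and Pnoc in the Trpm8 gate (49.1 CPM), while Oprm1 falls in steps from 700 CPM to 7.88 CPM.

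Penk, the enkephalin precursor, was concentrated in 2 small sets of neurons. It stood at 1065 CPM (1026 to 1105) in Prlr-high neurons, at 148 CPM (136 to 160) in Trpm8 neurons and at no more than 3.27 CPM in any other gate in the order. Prlr-high neurons were 1.96% of neurons and held 74.9% of neuronal Penk UMIs, and Trpm8 neurons held another 16.9%. Prlr-high exceeded Trpm8 by 7.21-fold (6.61 to 7.88). In the peptidergic gate 41 of 56 Penk UMIs came from 1 neuron, so its 1.60 CPM says little of the other neurons of the gate.

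Within the Prlr-high gate Penk varied widely between neurons. Single neurons held from 0 to 245 Penk UMIs with a median of 11. At least 10 UMIs were found in 35 of the 69 neurons, 1 to 9 in 8, and none in 26. Depth does not separate these sets, whose median totals were 37459, 39408.5 and 38356.5 UMIs. The gate as a whole was rich in Tac1, the precursor of substance P (3969 CPM), and in the heat channel gene Trpv1 (856 CPM), while Calca, the precursor of the neuropeptide CGRP, stood at 80.8 CPM against 6980 CPM in the peptidergic gate. Tac1 stood at 5439 CPM in the 35 Penk-rich neurons and at 2015 CPM in the 26 without a Penk UMI. Trpv1 went the other way, at 745 CPM (703 to 788) in the 43 neurons with Penk and 1034 CPM (972 to 1099) in those 26. Without the Prlr gate, 60 of the 69 neurons had no subtype, 6 went to A-beta touch and 3 to Trpm8.

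Prlr-high neurons account for the greater part of strongly Penk-positive neurons but not for all. Of 59 neurons with at least 10 Penk UMIs, 35 were Prlr-high, 19 were in the Trpm8 gate, 1 was peptidergic and 4 had no gate. Another 41 neurons had Prlr between 200 and 400 CPM, and with them in the gate its Penk level was 644 CPM.

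Pnoc, the nociceptin precursor, was a gene of Trpm8 neurons. Its level there was 49.1 CPM (42.6 to 56.2), from 209 UMIs in 32 of 131 neurons, with 17 UMIs in the highest. This was 92.9% of all neuronal Pnoc UMIs. The next level was 0.213 CPM in C-LTMRs, and Prlr-high neurons held none, so Trpm8 neurons were at least 42.7-fold higher when 3 counts are taken as the floor of the Prlr-high gate.

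The precursors Penk and Pnoc met in the same Trpm8 neurons. A Penk UMI was found in 24 of the 32 neurons with Pnoc (75.0%, 56.6 to 88.5%) and in 17 of the 99 without it (17.2%, 10.3 to 26.1%). The neurons with Pnoc were not the deeper ones, with a median of 26962.5 UMIs against 35256. Prlr separated the sets the other way. None of the 32 Pnoc neurons held a Prlr UMI, which allows up to 10.9% by the exact interval, while 46 of the 99 others did (46.5%).

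Sorting the 131 Trpm8 neurons by both precursors gave 24 with Pnoc and Penk, 8 with Pnoc alone, 17 with Penk alone and 82 with neither. Penk stood at 386 CPM where Pnoc was also present and at 606 CPM where it was not. Neurons with both precursors had the highest Tac1 (5634 CPM, against 2773 CPM with Penk alone and 3672 CPM with neither). Trpm8, a marker of the gate, stood at 483 CPM (430 to 539) with both precursors and 348 CPM (326 to 370) with neither. The nociceptin receptor gene Oprl1 was low with both precursors, at 3.10 CPM (0.376 to 11.2) from 2 UMIs, and stood at 13.4 CPM (9.43 to 18.5) in the neurons with neither.

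**Figure D3:**
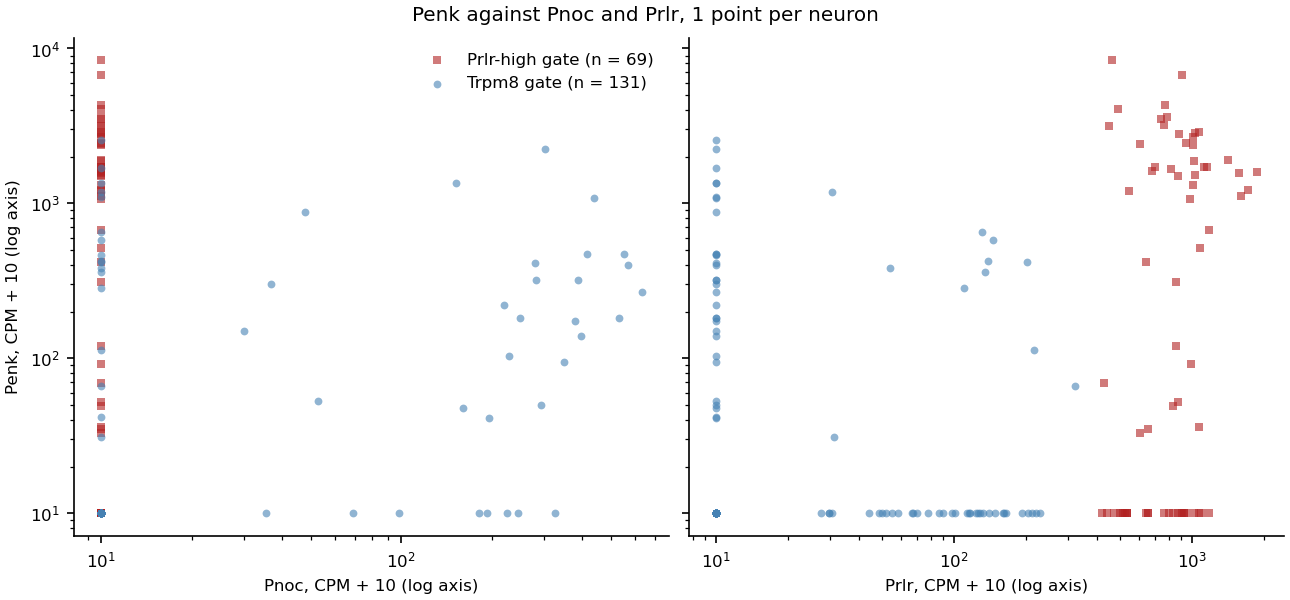
Penk against Pnoc (left) and Prlr (right), 1 point per neuron, on log axes of CPM + 10; squares are the 69 Prlr-high neurons and circles the 131 Trpm8 neurons. All plotted neurons with Pnoc belong to the Trpm8 gate and hold no Prlr. In the Prlr-high gate 35 neurons hold at least 10 Penk UMIs, 8 hold 1 to 9 and 26 hold none.

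Pdyn, the dynorphin precursor, was close to absent in all 3 libraries. It gave 20 UMIs in the DRG library, 19 of them in 17 neurons. Neurons without a gate held 52.6% of the neuronal UMIs. No gate in the order exceeded 0.766 CPM. In both tendon libraries it gave 0.

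Among the receptors, Oprm1 was detected in most neurons, and its level fell in steps over the gates. It was highest in Trpm8 neurons at 700 CPM (675 to 725), followed by itch neurons with Nppb and Sst at 542 CPM, A-fibre peptidergic neurons with Kit and Bmpr1b at 532 CPM and peptidergic nociceptors at 523 CPM. These last 3 did not differ beyond counting error between neighbours. Chrna3 silent nociceptors (388 CPM) and Mrgpra3 itch neurons (349 CPM) came next, then the Prlr-high neurons at 138 CPM (124 to 153). With the Prlr gate lowered to 200 CPM, Oprm1 in that gate stood at 286 CPM.

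Oprm1 was low in the other nociceptors and in touch neurons. A-beta touch neurons (66.2 CPM) and Mrgprd nociceptors (61.9 CPM) had an overlapping level, A-delta touch neurons had 20.3 CPM, and C-LTMRs had the lowest at 7.88 CPM (6.48 to 9.49). The peptidergic level was 8.44-fold that of Mrgprd nociceptors (8.12 to 8.78) and 66.3-fold that of C-LTMRs (55.0 to 80.6). The level was not set by few cells: in peptidergic nociceptors the median neuron held 22 Oprm1 UMIs, the highest 79, and 753 of 799 held at least 1.

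Shares of neurons with an Oprm1 UMI hide this difference, because neurons are deep. Of Mrgprd nociceptors 94.0% held an Oprm1 UMI and of peptidergic nociceptors 94.2%. When each neuron was thinned to 5000 UMIs the shares were 26.3% and 88.2%, in the order of the levels. In the Prlr-high gate Oprm1 stood at 124 CPM in the 35 Penk-rich neurons, at 232 CPM in the 8 with 1 to 9 Penk UMIs and at 127 CPM in the 26 without Penk. The levels of 232 and 127 CPM rest on few neurons. Of the 8 neurons, 1 held 41 Oprm1 UMIs and another held 17. Of 127 Oprm1 UMIs in the 26 neurons without Penk, single neurons held 33, 26, 23 and 20. The highest count in a Penk-rich neuron was 18. An Oprm1 UMI was found in 37 of the 43 neurons with Penk (86.0%, 72.1 to 94.7%) and in 14 of the 26 without (53.8%, 33.4 to 73.4%), and in 42.7% and 25.5% after thinning to 5000 UMIs. In the Trpm8 gate all 41 neurons with Penk held Oprm1, at 777 CPM (729 to 827), against 667 CPM (638 to 697) in the 90 without Penk.

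Oprd1, the delta receptor gene, was low throughout and highest in A-beta touch neurons and Mrgprd nociceptors. Its level was 4.36 CPM (2.44 to 7.19) in A-beta touch neurons, from 15 UMIs, and 2.74 CPM (2.29 to 3.25) in Mrgprd nociceptors, from 131 UMIs, a ratio of 1.59 that includes 1 (0.865 to 2.72). Chrna3 silent nociceptors had 1.80 CPM from 6 UMIs, and the ratio of Mrgprd nociceptors to them, 1.52, included 1 (0.681 to 4.23). No other gate in the order exceeded 0.383 CPM. Mrgprd nociceptors exceeded peptidergic nociceptors by 10.6-fold (5.43 to 23.7), while for Oprm1 the peptidergic gate was the higher. Mrgprd nociceptors held 61.2% of neuronal Oprd1 UMIs. Oprd1 was seen in 108 of 601 Mrgprd nociceptors, of which 105 also held Oprm1, at 66.5 CPM (61.3 to 72.1) against 60.8 CPM (58.4 to 63.3) in those without an Oprd1 UMI.

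Oprk1, the kappa receptor gene, was a gene of peptidergic neurons. It stood at 6.53 CPM (4.27 to 9.57) in A-fibre peptidergic neurons with Kit and Bmpr1b and at 6.28 CPM (5.47 to 7.17) in peptidergic nociceptors, a ratio of 1.04 (0.665 to 1.57). Peptidergic nociceptors were 50.03-fold above Mrgprd nociceptors (22.6 to 138), and 5 gates, among them Trpm8 and both itch gates, held no Oprk1 UMI. Peptidergic nociceptors held 67.8% of the neuronal UMIs, in 118 of 799 neurons, with 10 UMIs in the highest.

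Oprk1 and Oprl1 were found in different peptidergic nociceptors more often than together. Oprl1 stood at 2.06 CPM (1.09 to 3.52) in the 118 neurons with Oprk1 and at 9.21 CPM (8.13 to 10.4) in the 681 without. An Oprl1 UMI was found in 9.32% and 25.7% of them, although the neurons with Oprk1 were the deeper (55893 against 44680 UMIs). Oprm1 hardly differed between the sets, at 530 CPM and 521 CPM. Calca was higher with Oprk1, at 8148 CPM against 6721 CPM, as were Tac1 (4347 against 3844 CPM) and Trpv1 (302 against 250 CPM). Adcyap1 was lower with Oprk1, at 1146 CPM against 1293 CPM.

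Oprl1, the nociceptin receptor gene, was highest in large-fibre touch neurons and broadly present elsewhere. It stood at 25.0 CPM (20.0 to 30.8) in A-beta touch neurons, 14.2 CPM in A-delta touch neurons, 11.9 CPM in Prlr-high neurons, 10.3 CPM in Trpm8 neurons and 7.91 CPM in peptidergic nociceptors. From A-delta to Trpm8 to peptidergic, neighbours did not differ beyond counting error. A-beta touch neurons exceeded peptidergic nociceptors by 3.16-fold (2.45 to 4.04). Itch neurons were at the other end, with 0.439 CPM in the Mrgpra3 gate and 0.106 CPM, a single UMI, in the Nppb and Sst gate. The 17 proprioceptor-like neurons, outside the order for their number, had 56.3 CPM from 13 UMIs in 8 neurons.

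Genes with a pattern most like each member were taken over the 11 neuron gates by Pearson's r of log2(CPM + 10). These r are descriptions over gates of 1 library. For Penk, r reflects mainly the Prlr-high and Trpm8 gates, and the Prlr-high gate was set after the Penk values had been seen. For Pnoc it reflects mainly the Trpm8 gate. For Penk they were Susd1 (r = 0.993), Glra2 and Crabp2, all highest in the Prlr-high gate. For Pnoc they were Fn1 (r = 0.981), Gabrd and Hjurp, all highest in the Trpm8 gate. For Oprm1 they were Gcnt2 (r = 0.949), Zscan18 and Pik3r1, and for Oprl1 Zfpm2 (r = 0.951), Lacc1 and Ptgds, highest in A-beta touch neurons. For Oprk1 they were Gm2808 (r = 0.975), Prr15l and Kit, the last a marker that set 1 of the gates. For Oprd1, with the weakest likeness, they were Ccdc126 (r = 0.857), Tprg and Tmco1.

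Vector UMIs were used to mark neurons that took up virus injected in the tendon sheath. AAV_gene1 was found in 350 of 3518 neurons (9.95%, 8.98 to 10.99%), with a median of 11 UMIs in those neurons, and in 0 to 2.23% of the other classes, fibroblasts having the most. By gate the share ran from 38.2% in A-fibre peptidergic neurons with Kit and Bmpr1b, 23.6% in Chrna3 silent nociceptors and 18.3% in Mrgpra3 itch neurons down to 3.82% in Trpm8 neurons (5 of 131). Neurons with and without vector UMIs had median depths of 52420.5 and 46111.5 UMIs. The comparison was made over all neurons and then within gates, since the gates differ both in vector share and in the members' levels.

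Neurons with vector UMIs had a higher summed level of Oprm1 and lower summed levels of Penk and Pnoc than the other neurons, the latter from few neurons. The group without vector UMIs can include infected neurons whose vector transcripts were not captured. The group with vector UMIs, set at 1 or more, can include neurons that held only free vector RNA. A vector UMI was also found in 24 of 4843 satellite glia. Oprm1 stood at 331 CPM (322 to 339) with vector UMIs and 265 CPM (262 to 268) without, a ratio of 1.25 (1.22 to 1.28). Penk stood at 3.22 CPM with vector UMIs (60 UMIs, 36 of them in 1 neuron) and at 26.1 CPM without (3653 UMIs), a ratio of 0.123 (0.0940 to 0.159). Pnoc gave 4 UMIs with and 221 without vector, a ratio of 0.136 (0.0367 to 0.353), and all 4 came from 1 neuron. The shares of neurons with a UMI had overlapping intervals. For Penk they were 2.57% (1.18 to 4.83%) with and 4.55% (3.85 to 5.33%) without vector UMIs. For Pnoc they were 0.286% (0.00723 to 1.58%) and 1.23% (0.877 to 1.68%).

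Only Penk and Oprm1 were abundant enough to enter the comparison with all genes (at least 50 summed UMIs and 10 CPM in 1 of the sets). Of those 2 members, Penk was at least 2-fold apart, and of the 9037 genes tested 0.741% were. Penk was lower, as were 0.21% of the genes at that fold. The median log2 ratio of all genes was -0.02. The 2 gates that hold most Penk had few vector neurons: 6 of 69 in the Prlr-high gate and 5 of 131 in the Trpm8 gate. The 6 Prlr-high neurons with vector UMIs had Penk at 189 CPM (133 to 262), against 1133 CPM in the other 63, and all 36 of their Penk UMIs came from 1 neuron. The 5 Trpm8 neurons with vector UMIs held neither Penk nor Pnoc.

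Of the rarer receptors, Oprd1 alone had a ratio whose interval excludes 1. Oprk1 had a ratio of 0.913 (0.624 to 1.30) and Oprl1 of 0.952 (0.754 to 1.19), both intervals including 1. Oprd1 was lower, at 0.806 CPM with 15 UMIs against 1.42 CPM, a ratio of 0.567 (0.311 to 0.957), and within Mrgprd nociceptors, its main gate, the ratio of 0.730 included 1 (0.341 to 1.39). Pdyn gave 1 UMI with and 18 without vector, too few to compare.

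Within gates, the Oprm1 difference went in both directions. In peptidergic nociceptors, which held most Oprm1, the level was 547 CPM with and 520 CPM without vector UMIs, a ratio of 1.05 (1.00 to 1.10). It was higher with vector UMIs in A-fibre peptidergic neurons with Kit and Bmpr1b (626 against 468 CPM, 1.34-fold, 1.23 to 1.46), in Chrna3 silent nociceptors (572 against 322 CPM, 1.78-fold, 1.58 to 1.99) and in Mrgpra3 itch neurons (1.21-fold, 1.09 to 1.33). It was lower in Mrgprd nociceptors (0.847, 0.743 to 0.963) and in A-beta touch neurons (0.376, 0.225 to 0.596), where the vector side rests on 20 UMIs, 7 of them in 1 of 18 neurons. The share of A-beta touch neurons with an Oprm1 UMI was 33.3% with and without vector UMIs. Trpm8 neurons and Nppb and Sst itch neurons had intervals that include 1. In the neurons without a gate it was higher (360 against 270 CPM), at median depths of 39737 and 5533 UMIs.

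Ratios in the sparsest gates rested on single neurons. In C-LTMRs the ratio was 5.42, but 24 of the 25 Oprm1 UMIs with vector came from 1 of 15 neurons. In the Prlr-high gate it was 2.49, with 33 of 59 UMIs in 1 of 6 neurons. With gates of at least 5 vector neurons weighted equally, and neurons without a gate left out, the Oprm1 ratio was 1.22.

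**Figure D4:**
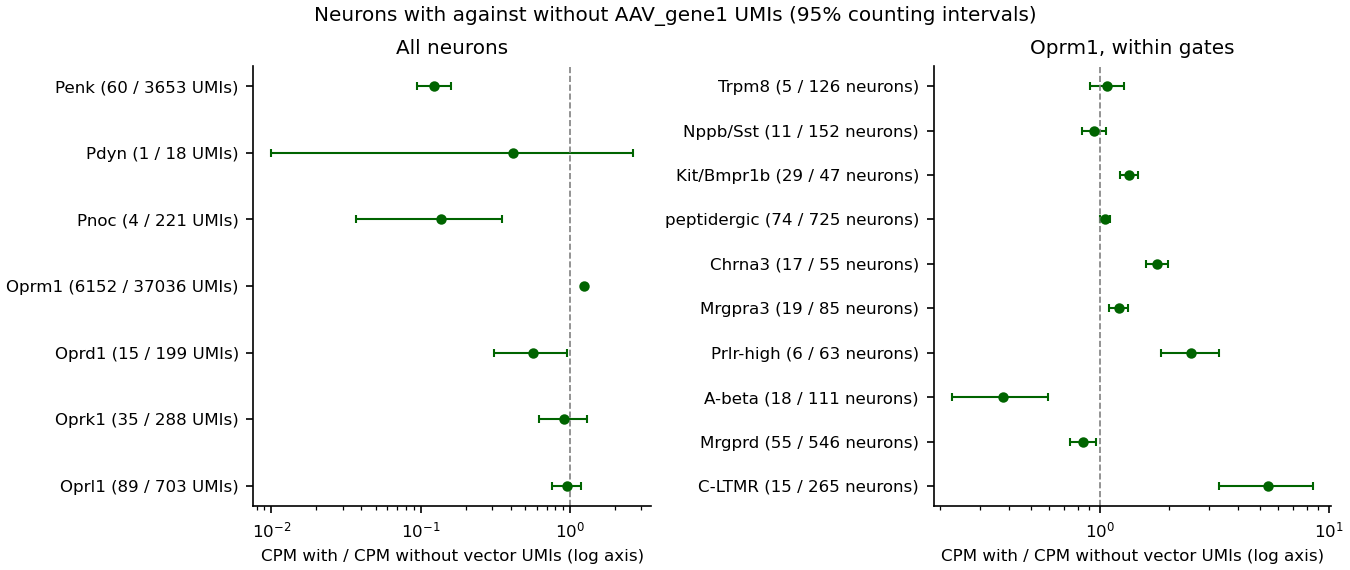
Ratio of CPM in neurons with over neurons without AAV_gene1 UMIs (log axes, 95% counting intervals, dashed line at 1) for the 7 members over all neurons (left, with UMI counts) and for Oprm1 within gates (right, with neuron counts). Penk lies at 0.123 and Oprm1 at 1.25 on the left, and on the right the ratios run from 0.376 in A-beta touch neurons to 5.42 in C-LTMRs.

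Around the receptors, 37 genes of opioid precursor processing, peptide breakdown and receptor signalling were measured, chosen by role. In the vector comparison 29 were abundant enough to enter, and 1 was at least 1.5-fold apart with an interval that excludes 1. This was Kcnj3, a subunit of the potassium channels opened by inhibitory G proteins, at 36.1 CPM with and 23.4 CPM without vector UMIs, 1.54-fold (1.41 to 1.67). Other subunits of these channels, too low to enter, had ratios below 1: Kcnj6 stood at 0.457 (0.337 to 0.609) and Kcnj9 at 0.385 (0.164 to 0.778). Of all genes 1.98% were that much higher and 1.05% that much lower. The convertases Pcsk1 (1.27-fold) and Pcsk2 (1.07-fold), which cut precursors at basic pairs, stayed under that fold. In the Penk-rich Prlr-high gate Pcsk1 stood at 129 CPM and Pcsk2 at 361 CPM, and in the Trpm8 gate they stood at 23.5 CPM and 128 CPM.

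In the tendon, Penk was the member with more than traces, and among the classes described it was highest in stromal fibroblasts. In stromal fibroblasts, gated on Pdgfra, Dpt, Cxcl12 and like genes, it stood at 94.4 CPM (88.4 to 101) after neurectomy and 128 CPM (121 to 135) in the sham library. Pi16 fibroblasts had 16.1 and 18.9 CPM. Tenocytes, the cells that build the tendon matrix, had 6.59 and 7.58 CPM, and endothelial cells 5.59 and 5.60 CPM. Other classes that are not fibroblasts stood on both sides of the tenocyte level. Macrophages had 4.89 and 1.37 CPM, mural cells 9.22 and 2.74 CPM and lymphatic endothelium 7.82 and 9.05 CPM. From few UMIs, mast cells had 40.8 and 0 CPM (4 and 0 UMIs) and Schwann cells 11.3 and 0 CPM (5 and 0 UMIs). Mineralising cells had 12.1 and 14.9 CPM and synovial lining cells 7.33 and 17.6 CPM. Barcodes without a gate had 27.4 and 42.2 CPM, with 526 of 1832 and 817 of 2932 Penk UMIs. How much of the tenocyte Penk is free RNA was not tested. In the sham library 56 of 12921 tenocytes held 2 or more Penk UMIs. Stromal fibroblasts exceeded tenocytes 14.3-fold after neurectomy (12.2 to 16.9) and 16.9-fold in the sham library (15.2 to 18.7), and Pi16 fibroblasts 5.88-fold and 6.77-fold. The DRG fibroblasts had the opposite order, with Penk lower on the stromal than on the Pi16 list.

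Between the tendon libraries, stromal Penk was lower after neurectomy over all barcodes, and no difference beyond counting error was seen among barcodes with Xist alone. The libraries gave 937 UMIs in 2378 barcodes and 1423 UMIs in 1123 barcodes, a ratio of 0.738 (0.679 to 0.803; log2 -0.44). Sham stromal barcodes with a Y-linked and no Xist UMI stood at 196 CPM (181 to 212; 213 barcodes). Sham stromal barcodes with Xist and no Y-linked UMI stood at 89.3 CPM (82.4 to 96.6; 579 barcodes), so that the former were 2.20-fold higher (1.96 to 2.46). Neurectomy barcodes with Xist and no Y-linked UMI stood at 98.4 CPM (92.0 to 105; 1683 barcodes). Among barcodes with Xist alone the ratio of neurectomy to sham was 1.10 with an interval that includes 1 (0.994 to 1.22), at median depths of 2138 and 10184 UMIs. Thinned to 1000 UMIs, 6.91% of these neurectomy barcodes and 7.41% of these sham barcodes held Penk. Shallow stromal barcodes with neither kind of transcript (median 989 and 1087 UMIs) stood at 55.8 CPM after neurectomy (694 barcodes) and at 219 CPM in the sham library (301 barcodes).

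The same split was seen in Pi16 fibroblasts, where sham barcodes with Y-linked transcripts stood at 45.8 CPM (54 barcodes) and those with Xist at 14.3 CPM, a ratio of 3.19 (2.09 to 4.77). Their ratio of neurectomy to sham was 0.851 (0.625 to 1.15) over all barcodes and 1.10 (0.777 to 1.55) among those with Xist alone. In tenocytes, sham barcodes with Y-linked transcripts and those with Xist did not differ beyond counting error, with a ratio of 1.15 (0.821 to 1.58). Sham tenocytes with neither kind stood at 18.4 CPM (6071 barcodes, median 1056 UMIs), against 5.00 CPM with Xist alone. Those with both kinds stood at 16.8 CPM (398 barcodes). Neurectomy tenocytes with neither kind stood at 16.5 CPM, against 5.43 CPM with Xist alone. The labels do not say how many mice gave the cells with Y-linked transcripts, so a difference between sexes and one between mice cannot be told apart. Among these sham stromal barcodes 65.3% of those with Y-linked and 35.2% of those with Xist transcripts held a Penk UMI, at median depths of 11337 and 10184 UMIs.

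**Figure D5:**
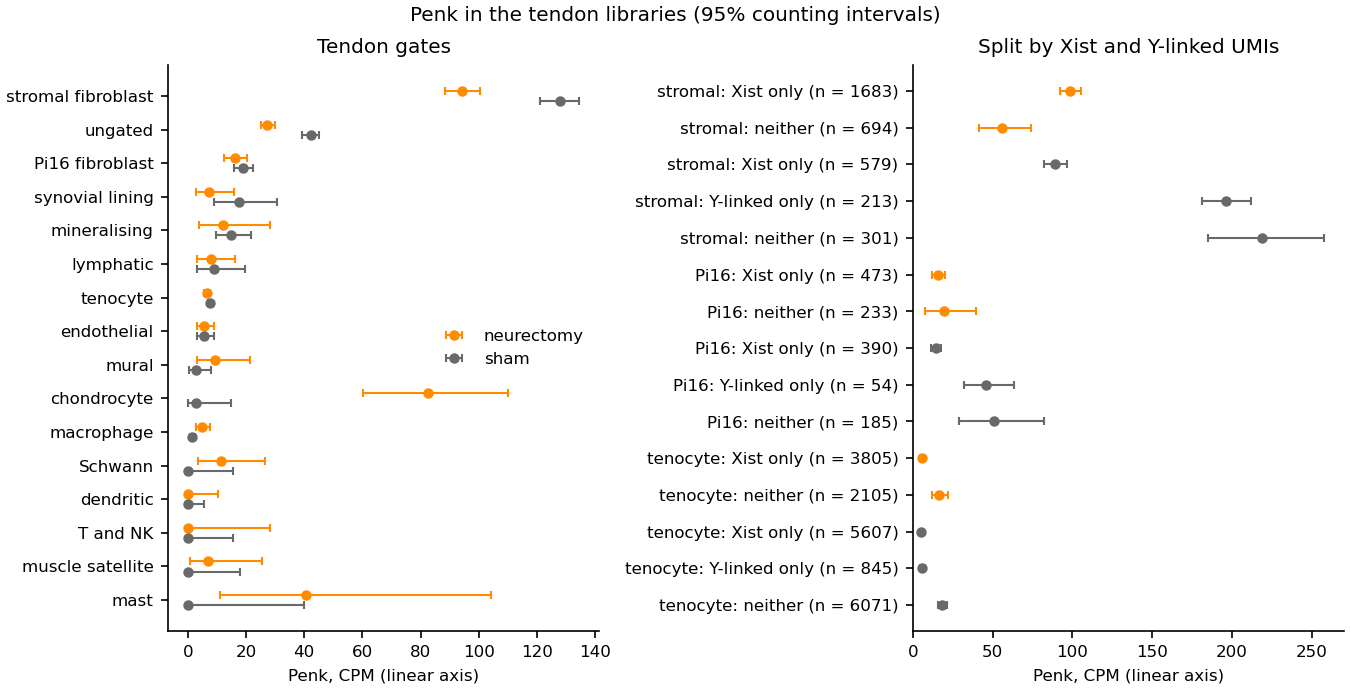
Penk level (CPM, linear axes, 95% counting intervals) in tendon gates of the neurectomy (orange) and sham (grey) libraries (left), and in stromal fibroblasts, Pi16 fibroblasts and tenocytes split by whether a barcode held Xist UMIs, Y-linked UMIs or neither (right; barcodes with both are left out). In stromal fibroblasts, neurectomy (98.4 CPM) and sham (89.3 CPM) barcodes with Xist alone are close, and sham barcodes with Y-linked UMIs reach 196 CPM.

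Other values moved with the stromal difference. The median depth of stromal barcodes was 1509 UMIs after neurectomy and 5650 UMIs in the sham library, and skeletal muscle markers summed to 96.6 CPM and 17.9 CPM. The 7 stromal markers summed to 3098 and 2924 CPM and the 7 tenocyte markers to 1521 and 2014 CPM, none of them at 0. The part of depth and of other cell types in the result was not tested. Thinned to 1000 UMIs, 6.55% of neurectomy and 10.4% of sham stromal barcodes held Penk.

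Of 1 member that entered in stromal fibroblasts, Penk, 0 reached a 2-fold difference, and 1.92% of the 9342 genes tested did. In Pi16 fibroblasts Penk was again the only member to enter and was under that fold, and 2.47% of genes were 2-fold apart. No member entered in tenocytes. Over all tendon barcodes Penk was level, at 25.1 and 25.0 CPM (ratio 1.00, 0.946 to 1.06). However, stromal fibroblasts, the gated class with the highest Penk level, formed 11.2% of analysed barcodes after neurectomy and 4.63% in the sham library. Tenocytes, with low Penk, formed 27.9% and 53.3%. Penk was lower after neurectomy within stromal fibroblasts (0.738) and within barcodes without a gate (0.649, 0.581 to 0.725). How far class shares set the value over all barcodes was not tested. A few classes went up rather than down, from low counts. Macrophages had 4.89 CPM from 20 UMIs after neurectomy and 1.37 CPM from 10 UMIs in the sham library, 3.57-fold (1.59 to 8.54), at median depths of 1497 and 6045 UMIs. Chondrocyte-like barcodes had 46 and 1 UMIs, of which 38 came from 1 barcode.

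Genes patterned most like Penk over the 15 tendon gates, with both libraries summed, were Cacna2d3 (r = 0.872), Bmper and Grid1, all highest in stromal fibroblasts. Of the pathway genes, 17 entered in stromal fibroblasts and 2 were at least 1.5-fold lower after neurectomy with an interval that excludes 1, against 2.06% of all genes, while none was as much higher, against 3.1%. These were Mme, which encodes the enkephalin-degrading peptidase neprilysin (0.656, 0.568 to 0.756), and the calcium channel gene Cacna1a (0.659, 0.600 to 0.723). Both were compared over all stromal barcodes, without a split by sex-linked transcripts. In Pi16 fibroblasts 2 of 14 were higher, the carboxypeptidase gene Cpe (2.71-fold, 2.08 to 3.53) and the G protein gene Gnao1 (1.81-fold, 1.21 to 2.68), against 5.67% of all genes, and none was as much lower, against 2.8%. In tenocytes 0 of the 14 that entered were past that fold, against 3.43% of genes higher and 1.52% lower. Pathway genes too low to enter went both ways. In tenocytes Pcsk1n (79 and 17 UMIs, 10.4-fold, 6.11 to 18.8) and Pcsk1 (26 and 11 UMIs, 5.30-fold, 2.53 to 11.9) were higher after neurectomy. Adcy5 was lower (24 and 112 UMIs, 0.480, 0.295 to 0.752). In stromal fibroblasts Grk3 was higher (46 and 20 UMIs) and Adcy1 lower (1 and 30 UMIs).

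The receptors were nearly silent in the tendon, apart from Oprm1 in immune cells. Oprm1 gave 33 UMIs in the neurectomy and 71 in the sham library. T and NK cells, the smallest class described, had 61.5 CPM after neurectomy (8 UMIs, 6 of them in 1 of 26 barcodes) and 58.8 CPM in the sham library (14 UMIs, 7 of them in 1 of 31 barcodes), a ratio of 1.05 (0.380 to 2.67). Dendritic cells had 14.2 and 16.1 CPM, macrophages 1.22 and 1.78 CPM, and stromal fibroblasts 0 and 0.180 CPM. Tenocytes gave 0 Oprm1 UMIs after neurectomy and 12 in the sham library (0.191 CPM), at most 1 per barcode. Their ratio was 0 with an interval that excludes 1 (0 to 0.807), and its source was not tested. In each library T and NK cells exceeded macrophages, 50.3-fold (14.5 to 195) and 33.0-fold (14.4 to 76.2). Genes patterned most like Oprm1 over tendon gates were Itgal (r = 0.985), Il18rap and Mpzl3, all highest in T and NK cells.

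Oprd1, Oprk1 and Oprl1 gave between 2 and 9 UMIs in each tendon library, and Pnoc 8 and 21. No difference in these 4 members between neurectomy and sham was detectable within a class at this depth. Over all barcodes Oprd1 gave 8 and 2 UMIs, a ratio of 6.42 (1.28 to 62.1). In tenocytes, the largest class, Oprl1 stood at 2 and 3 UMIs and Oprk1 at 3 and 2.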

How the data were processed

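Droplet single-cell RNA was measured in 3 libraries. The deposited matrices hold raw counts, as UMIs per gene and barcode, and the file headers name Cell Ranger 8.0.1 as the authors' software. Both mm10 and GRCm39 appear in the submitters' processing notes, not assigned to libraries, so no coordinate was taken from the files, and sequences come from GRCm38.

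Barcodes were kept if 500 or more genes were detected and mitochondrial genes gave no more than 15% of UMIs. Classes were gated by marker lists without opioid genes: each list's log level was scaled, and the best list had to lead by 0.1 with at least 2 markers detected. Barcodes with high scores and 3 markers of each of 2 classes were left out as doublets, and pairs of neurons were not treated. The members and all lists were chosen with earlier results of these data known. The named genes are the 7 members, the 3 genes most like each, and pathway genes past 1.5-fold, for which the other genes with at least 50 UMIs and 10 CPM gave the background.

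Counts were summed per library and class into CPM with exact Poisson intervals. For ratios the interval is the exact conditional binomial one and for shares that of Clopper and Pearson, at 95%. A floor of 3 counts was used where a group held none. Shares were thinned to 5000 UMIs for neurons and 1000 for tendon cells, and shallower cells were left out. With 1 library a group no p-value was computed, and intervals and floors cover counting error only. The gene-ratio step was tested on simulated data. Median depths are given beside the values. Alternatives were stricter filters, gates and depth minimums, doublets kept, barcodes averaged by their own totals, the barcode with most UMIs left out, another vector minimum, and equal weights of subtypes. Splits by Xist and Y-linked UMIs, removal of shared barcodes and another Prlr gate were chosen after seeing the data. Python 3.11.15, numpy 2.4.6, scipy 1.17.1 and pandas 2.3.3 were used.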

Additional observations from a re-analysis of the deposited data

Results flagged for a closer look

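The neurectomy to sham ratio of Penk took different directions between tendon classes: 0.738 in stromal fibroblasts, against 3.57 in macrophages and 31.1 in chondrocyte-like barcodes. The macrophage value rests on 20 and 10 UMIs, and 38 of the 46 chondrocyte UMIs came from 1 barcode. The difference between these classes was not tested.

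The ratio of Oprm1 in neurons with over without vector UMIs also differed in direction between subtypes. It was above 1 in C-LTMRs (5.42, 24 of 25 UMIs in 1 neuron), Prlr-high neurons (2.49, 6 neurons with vector UMIs), Chrna3 silent nociceptors (1.78), A-fibre peptidergic neurons with Kit and Bmpr1b (1.34), Mrgpra3 itch neurons (1.21) and peptidergic nociceptors (1.05). It was below 1 in A-beta touch neurons (0.376) and Mrgprd nociceptors (0.847). With 1 library, the difference between subtypes was not tested.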

How the results depend on the processing

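The ratio of stromal Penk between neurectomy and sham, 0.738, was 0.840 among barcodes with at least 5000 UMIs, 0.558 with barcodes averaged by their own totals, 0.620 without barcodes in both tendon libraries, and 1.10 among barcodes with Xist and no Y-linked UMI, the last 2 chosen after seeing the data. The cause was not tested. The macrophage Penk ratio of 3.57 was 0 at 5000 UMIs, with no UMI left after neurectomy, 2.37 at 1000 genes, 5.95 with stricter gates and 2.06 with own totals.

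DRG fibroblast Penk was 94.5 CPM at 5000 UMIs. Prlr-high Penk, 1065 CPM, was 1185 CPM with own totals, 994 CPM without its highest neuron and 644 CPM with the Prlr gate at 200 CPM, where Oprm1 was 286 CPM instead of 138 CPM. Trpm8 Pnoc, 49.1 CPM, was 58.0 CPM with stricter gates and 62.8 CPM with own totals. Peptidergic Oprm1, 523 CPM, was 534 CPM with doublets kept, 536 CPM with stricter gates and 499 CPM with own totals. The Oprm1 vector ratio, 1.25, was 1.39 with own totals and 1.39 at 2 or more vector UMIs. Neutrophil Oprm1 was 67.8 CPM with own totals.

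Of 81 ratios under these alternatives 69 lay on the same side of 1 as reported. Tendon depths limit all members but Penk there. No paired analysis was possible because each group is 1 library.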
